A study of Mus musculus with 6 samples.

Results

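Fc receptors bind the constant part of antibodies and pass the signal into immune cells. The genes described here are the mouse IgG receptors Fcgr1, Fcgr2b and Fcgr3, the IgE receptor chain Fcer1a and the signalling adaptors Fcer1g and Tyrobp. They were taken by the gene symbol of their probe, with a log ratio required on at least 4 of 6 arrays. Of the 6 genes named, 5 met this rule, out of 9774 genes that met it in all. Fcer1a, with a value on 2 arrays, did not meet it and is given as values only, and Fcgr3 met it with exactly 4.

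The arrays are two-colour arrays of whole lung. On each one, amplified RNA from 1 C57 mouse sensitized and challenged with ovalbumin (OVA, an egg white protein used to provoke allergic airway inflammation) was set against a pool of amplified lung RNA from control C57 mice. There were 6 OVA mice and 1 pool, so every ratio shares the same control RNA. The labels give no age, sex, dose or schedule of OVA, and no number of mice in the pool. They name no dyes and do not say which channel is the numerator of the deposited log ratio. The text therefore keeps the deposited sign, expresses size as folds apart, and leaves unassigned which sign stands for more RNA in the OVA lungs. The values were read as log2 ratios.

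Clca1, Muc5ac and Retnla, genes that are well known to rise in allergic airways, show on which side such genes lie in these arrays. Clca1, a regulator of mucus, had a mean log2 ratio of -3.06, the mucin Muc5ac -2.63 and the resistin-like Retnla -2.81. All 3 were negative in 5 mice. In mouse 3 they were positive, at 0.842, 0.224 and 1.01. The array of mouse 3 stood apart over the probes as a whole: its log2 ratios had an SD of 0.212, against 0.321 to 0.471 on the other arrays. Its correlation with them across 8663 probes, which are not independent replicates, was 0.168 to 0.417. Results are therefore given with and without mouse 3. This mouse was set apart from these same ratios, and it had the highest value of each of the 5 genes. Leaving it out was therefore bound to move their means further below 0, and p-values without it are a description. For the 5 genes, the gap from mouse 3 to the next mouse was 0.287 to 0.538 of the range of the values. These gaps stayed under Dixon's critical value for an outlier (0.625, and 0.829 for Fcgr3). The arrays held a value for 63.2% to 76% of the 17280 probes, and control sequences spotted 17 times had a median SD within an array of 0.091 to 0.136.

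As background, IgG receptors come in activating and inhibitory forms. Activating receptors such as the high-affinity Fcgr1 and the low-affinity Fcgr3 have no signalling motif of their own in the mouse and depend on the common gamma chain, Fcer1g. This small adaptor carries an immunoreceptor tyrosine-based activation motif (ITAM), which Src family kinases phosphorylate and which then recruits the kinase Syk. Fcgr2b carries an inhibitory motif (ITIM) in its own tail and recruits the lipid phosphatase Inpp5d. Fcer1a binds IgE on mast cells and basophils and needs the same gamma chain. Tyrobp, also called DAP12, is a second ITAM adaptor that serves receptors of myeloid and natural killer cells other than the classical Fc receptors. In the lung, macrophages and monocytes carry most of these IgG receptors, and B cells carry Fcgr2b.

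The 5 genes all had a negative mean ratio, on the side of Clca1 and Muc5ac. Fcgr1 was 3.66-fold apart from the pool and Fcgr2b 2.21-fold, and these 2 of 5 passed the test (limma, Benjamini-Hochberg adjusted p under 0.05 over all probes). Of all 11629 tested probes 24.4% passed, made up of 12.3% below 0 and 12% above 0 in their mean. Fcer1g, at 1.62-fold apart, did not pass with all mice and passed without mouse 3. Fcgr3 and Tyrobp, at 1.12-fold and 1.15-fold, did not pass either way. Without mouse 3, 3 of the 5 passed, where 13.2% of all probes passed with a negative mean. The lungs were measured whole, so a difference in the number of cells of a type and a difference in RNA per cell cannot be told apart, whichever group the sign favours.

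**Figure D1:**
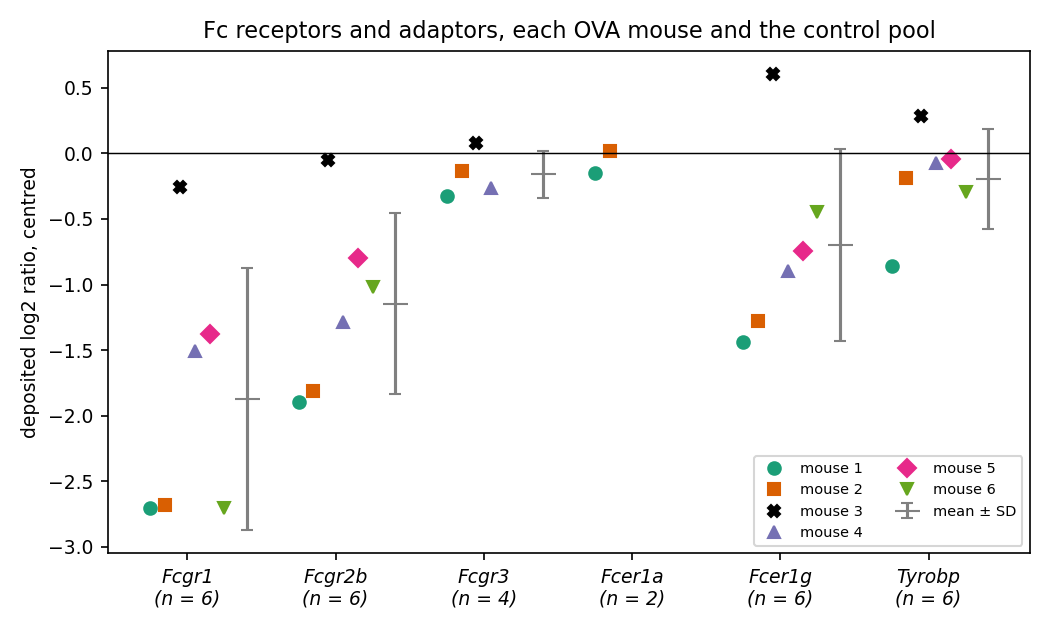
Centred log2 ratio (vertical axis, sign as deposited) of each gene in each OVA mouse against the control pool. Symbols are mice, grey bars are mean ± SD for genes with a value in at least 4 mice; mouse 3 (black crosses) is the highest of the mice for Fcgr1 (-0.26), Fcgr2b (-0.054), Fcgr3 (0.081), Fcer1g (0.607) and Tyrobp (0.281).

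Fcgr1 encodes CD64, the IgG receptor of highest affinity. Its log2 ratio was -2.705 in mouse 1, -2.678 in mouse 2, -0.26 in mouse 3, -1.507 in mouse 4, -1.38 in mouse 5 and -2.703 in mouse 6. Mice 1, 2 and 6 were nearly level, mice 4 and 5 formed a middle pair, and mouse 3 was nearest to 0. The mean was -1.87 ± 1.00 (SD, n = 6), with an adjusted p of 0.0102 in limma and a 95% interval of -2.66 to -1.09. Only 0.198% of the tested probes had a lower mean, which placed Fcgr1 at rank 24. Without mouse 3 the mean was -2.19 ± 0.69, 4.58-fold apart (limma, adjusted p = 0.00239). The SD over the 6 mice was also among the larger ones, exceeded by 0.543% of the probes measured in all mice.

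Fcgr2b, the inhibitory IgG receptor, had log2 ratios of -1.893 in mouse 1, -1.814 in mouse 2, -0.054 in mouse 3, -1.288 in mouse 4, -0.799 in mouse 5 and -1.021 in mouse 6. All 6 values were below 0, but that of mouse 3 was smaller than the SD between repeated spots. The mean was -1.14 ± 0.69 (SD, n = 6; limma, adjusted p = 0.0142; 95% interval -1.69 to -0.603), and 0.826% of the tested probes had a lower one. Without mouse 3 the mean was -1.36 ± 0.48, 2.57-fold apart (limma, adjusted p = 0.00333). Without mouse 4 the adjusted p reached 0.05 at a mean of -1.12.

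Fcgr3, the activating low-affinity receptor CD16, had a value in 4 mice: -0.324 in mouse 1, -0.137 in mouse 2, 0.081 in mouse 3 and -0.264 in mouse 4. The mean of -0.16 ± 0.18 (SD, n = 4) did not pass the test (limma, adjusted p = 0.199), with a 95% interval of -0.361 to 0.0391. Without mouse 3 it was -0.24 ± 0.10 in 3 mice, and the adjusted p was 0.0618. Mice 5 and 6 have no value for this probe in the table. Without mouse 1 the mean was -0.107. Fcgr2b and Fcgr3 are closely related in the part that binds IgG, and the probe sequences were not used here, so cross-hybridization between their transcripts was not tested. Fcgr2b had the lower value in the 4 mice, by a log2 difference between -1.677 and -0.135. The smallest difference, in mouse 3, was close to the SD of 0.129 between repeated spots on that array.

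The IgE receptor chain Fcer1a had a log2 ratio of -0.154 in mouse 1 and 0.02 in mouse 2 and no value in the other mice. These values lay on both sides of 0. Ms4a2, the beta chain of the same receptor, is on the array and had no value in any mouse.

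Fcer1g, the gamma chain that the activating receptors share, had log2 ratios of -1.441, -1.275, 0.607, -0.895, -0.745 and -0.45 in mice 1 to 6. It was thus negative in 5 mice and on the other side of 0 in mouse 3. The mean was -0.70 ± 0.73 (SD, n = 6; limma, adjusted p = 0.0772; 95% interval -1.28 to -0.121). Without mouse 3, which held the only positive value, it was -0.96 ± 0.40, 1.95-fold apart, and passed (limma, adjusted p = 0.00537). That mean was bound to be lower with this value left out. Fcer1g also passed with all 6 mice when limma weighted the arrays, at a mean of -0.74 (adjusted p = 0.0356). These weights were estimated from the same ratios and are not a separate measure of quality. They were 0.557 for mouse 1 and 0.739 for mouse 3, against 1.06 to 1.53 for the other mice.

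Tyrobp had log2 ratios of -0.86, -0.19, 0.281, -0.071, -0.047 and -0.298 in mice 1 to 6. Mouse 1 lay well below the other negative values, of which those of mice 4 and 5 were smaller than the spread between repeated spots. The mean of -0.20 ± 0.38 (SD, n = 6) did not pass (limma, adjusted p = 0.3), and its 95% interval was -0.502 to 0.107. Without mouse 3 the mean was -0.29 ± 0.33 (limma, adjusted p = 0.123), and without mouse 1 it was -0.065. The value of Tyrobp therefore rested largely on mouse 1.

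**Figure D2:**
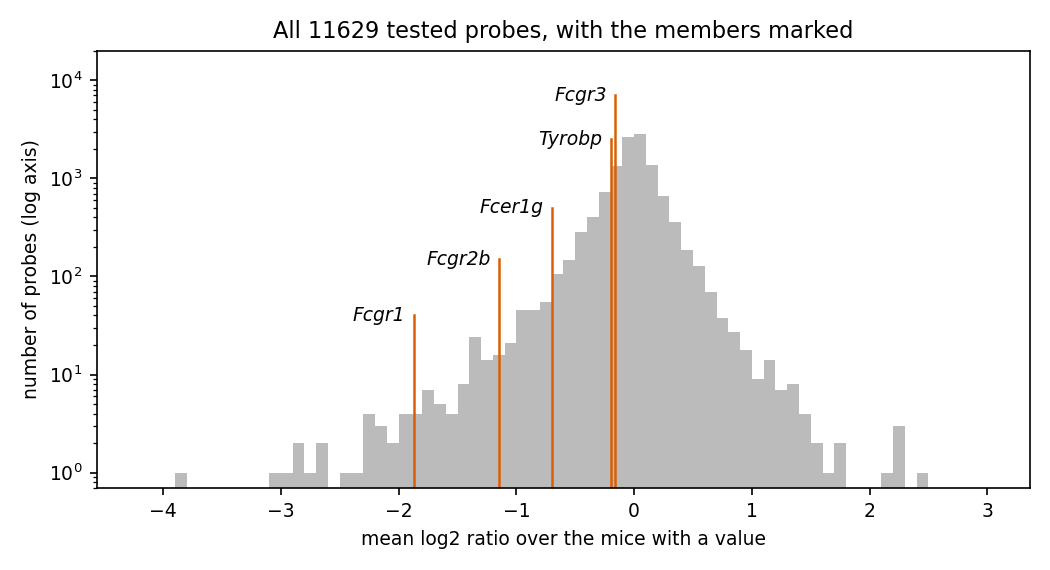
Distribution of the mean log2 ratio (horizontal axis) over the 11629 tested probes, with the number of probes on a log axis and orange lines at the means of the 5 genes (line heights only separate the labels). Fcgr1 (-1.87) and Fcgr2b (-1.14) lie in the sparse left part, and Fcgr3 (-0.16) and Tyrobp (-0.20) lie in its dense centre.

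The genes differed among themselves in size. The log2 ratio of Fcgr1 was below that of Fcer1g in 6 of 6 mice, by -1.17 ± 0.62 (SD), and below that of Fcgr2b in 6 of 6 mice, by -0.73 ± 0.55. Fcgr2b was below Fcer1g, which lies near it on chromosome 1, in every mouse as well, by -0.45 ± 0.21. The difference was largest in mouse 3, at -0.661, although both genes were nearest to or above 0 in that mouse. In mouse 5 it was -0.054, less than the SD of 0.132 between repeated spots on that array. Fcer1g was below the other adaptor, Tyrobp, in 5 of 6 mice, by -0.50 ± 0.51, with mouse 3 the exception at 0.326. Fcgr3 and Tyrobp, with 4 mice in common, were apart by 0.05 ± 0.35. These differences are descriptions without a test. Each gene's probe also carries its own deviation of the shared pool.

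The order of the mice was partly shared by the genes. Mice 1 and 2 were lowest or near it for Fcgr1, Fcgr2b and Fcer1g. For Fcgr2b and Fcer1g, mice 1, 2 and 4 lay between -1.893 and -1.288 and between -1.441 and -0.895, below mice 5 and 6 at -1.021 to -0.799 and -0.745 to -0.45. Fcgr1 did not follow that order, since mouse 6 at -2.703 was level with mice 1 and 2. Across all probes, r was 0.82 to 0.861 within mice 1, 2 and 4 and 0.852 between mice 5 and 6. Between these sets r ran from 0.492 (mice 1 and 5) to 0.748 (mice 2 and 6). The labels give no batch, so the part of this split in the values was not tested.

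Fcgr2b, Fcgr3 and Fcer1g lie close together on mouse chromosome 1, while Fcgr1 is on chromosome 3. In the RefSeq gene order of GRCm38.p6 the tested protein-coding genes of this stretch are, in turn, Fcgr2b, Fcgr3, Cfap126, Sdhc, Pcp4l1, Nr1i3, Apoa2 and Fcer1g. The genes between Fcgr3 and Fcer1g did not share one sign. The ciliary Cfap126 had a mean log2 ratio of 0.23 and the succinate dehydrogenase subunit Sdhc -0.04, neither past the test. Pcp4l1 was at 0.50 (limma, adjusted p = 0.0118) and the nuclear receptor Nr1i3 at -0.48 (limma, adjusted p = 0.0142). The apolipoprotein Apoa2, beside Fcer1g, was at 0.25 and did not pass (limma, adjusted p = 0.145).

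RefSeq promoter windows of GRCm38.p6 (250 bases before to 50 after the start of the gene) were found for 4 of the 5 genes, without Tyrobp. Stretches of these windows are shown because Fcgr1, Fcgr2b and Fcer1g lay on one side of the pool in 5 mice, and because Fcgr1 and Fcgr3, which differed in ratio, share a sequence run near their starts. The motifs below were searched on both strands. GAGGAA is the core that the myeloid factor PU.1 binds, TTCNNNGAA is the interferon gamma activated site bound by STAT factors, and GAAANNGAA is the core of elements that interferon regulatory factors bind. The stretches are minus strand sequences, written 5′ to 3′, with matches to the first 2 motifs in capitals. They are chr3:96293970-96294089 for Fcgr1, chr1:170976072-170976191 for Fcgr2b and chr1:171234350-171234469 for Fcer1g, each the 120 bases before the start, and chr1:171059395-171059424 for Fcgr3, 30 bases across the start.
Fcgr1: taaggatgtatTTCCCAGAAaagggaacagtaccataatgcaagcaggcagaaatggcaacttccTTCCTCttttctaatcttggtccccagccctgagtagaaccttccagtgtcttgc
Fcgr2b: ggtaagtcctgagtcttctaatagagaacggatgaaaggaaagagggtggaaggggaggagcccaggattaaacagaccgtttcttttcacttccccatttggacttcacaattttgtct
Fcer1g: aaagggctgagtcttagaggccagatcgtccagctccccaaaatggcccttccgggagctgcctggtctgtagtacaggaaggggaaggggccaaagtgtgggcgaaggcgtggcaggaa
Fcgr3: agagagtccatttccTTCCTCtttttgtag

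The Fcgr1 window held the letters TTCCCAGAA, a TTCNNNGAA match, from position -109, and TTCCTC, the reverse complement of GAGGAA, from position -55 (position -1 is the base before the start). The Fcgr3 window held TTCCTC from position -6, and a second window of Fcgr3, from another annotated start, held it from position -15. The longest run shared by these 2 windows was TTCCTTCCTCTTTT, 14 bases, which 3 of 27025 promoter windows hold on either strand: those of Dock2, Fcgr1 and Fcgr3. The windows of Fcgr1 and Fcgr3 hold it by construction, since the run was taken from them. Other pairs of windows were not searched, so the low count cannot be weighed against that of other shared runs. The windows of Fcgr2b and Fcer1g held no match to any of the 3 motifs, which says only that these letters are not there. Over all windows, 28.3% held GAGGAA, 8.47% TTCNNNGAA and 8.57% GAAANNGAA.

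Genes that signal with these receptors were read from lists chosen for the pathway, and are described by counts beside the shares of all probes that passed, 12.3% below 0 and 12% above 0. The counts vary with the mice used: over all probes there were 2832 calls, against 1376 without mouse 2, 1325 without mouse 4 and 1708 without mouse 6. The negative calls over all probes numbered 1431 with all mice, 1199 without mouse 1, 665 without mouse 2 and 1539 without mouse 3. They numbered 673 without mouse 4, 1023 without mouse 5 and 846 without mouse 6. The list counts with a mouse left out are to be read beside these. Of 6 other Fc receptors tested, 2 passed, both negative: the cytosolic antibody receptor Trim21 at -0.37 and the epithelial antibody transporter Pigr at -0.31. Fcgrt, the neonatal Fc receptor that recycles IgG, was at 0.14, the low-affinity IgE receptor Fcer2a at -0.20 and the IgM receptor Fcmr at 0.32, none past the test. Both calls held without mouse 1 or mouse 3 and were lost without mouse 2, 4 or 6. Without mouse 5 the call of Pigr held and that of Trim21 was lost. The list as first drawn up also held the ficolin Fcnb, a carbohydrate-binding lectin and not an Fc receptor, which passed at -0.12 and was taken out after its values were seen (3 of 7 with it). Fcgr4, the remaining mouse IgG receptor, has no probe under its symbol.

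Among receptors that can signal through Fcer1g or Tyrobp, some of which also work without them, 4 of 11 passed, all negative, and the list had a median of -0.23. Clec4n, the fungal receptor Dectin-2 that signals through Fcer1g, was at -1.33 ± 0.81 (SD, n = 6; limma, adjusted p = 0.0147). The others were the CD300 family receptor Cd300ld at -0.90, the integrin chain Itgb2 at -0.72 and the Tyrobp partner Clec5a at -0.48. Trem2 and Trem3, which also pair with Tyrobp, were at 0.04 and -0.23, and Trem1 at -0.57, none past the test. Leaving out mouse 3 again gave 4 calls among the 11, and leaving out mouse 2 or mouse 4 gave 1.

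The kinases and adaptors below the ITAM were listed together with effector genes, namely oxidase subunits and actin regulators. This list had 9 calls among 33, all negative, and a median of -0.25. The oxidase subunit Cybb (-0.36, n = 4) was among the calls. They were led by the Src family kinase Fgr at -0.93, the protein kinase C isoform Prkcd at -0.82, the adaptor Sh3bp2 at -0.71, the actin nucleator subunit Arpc1b at -0.70, Bcl10 at -0.58 and the adaptor Lcp2 (SLP-76) at -0.58 ± 0.22. Lcp2 was negative in 6 of 6 mice, between -0.834 in mouse 2 and -0.219 in mouse 3. Syk itself had values in mice 3 to 6 alone, at 0.098, -0.195, -0.153 and -0.323, and did not pass. Btk, at -0.45, and the adaptor Lat, at 0.03, did not pass either. Without mouse 3 the count was 17 of 33, all negative. It was 3 without mouse 2, 4 without mouse 4 or mouse 5, and 5 without mouse 1 or mouse 6. The negative calls over all probes also fell without each of these mice.

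The inhibitory list held receptors, most with ligands of their own, phosphatases and the adaptors Dok2, Dok3 and Pag1. Of its 19 tested genes, 10 passed below 0 and 1 above 0, with a list median of -0.31. These adaptors did not pass. Lilrb4a, an inhibitory receptor of myeloid cells, was at -1.73 ± 0.88 (SD, n = 6; limma, adjusted p = 0.00906), with mouse 3 at -0.109 and the other mice between -2.569 and -1.511. Lair1, a collagen receptor with inhibitory motifs, was at -1.29, Clec4a2 at -0.98, the paired receptor Pirb at -0.75, the phosphatase Ptprc (CD45) at -0.74 and Sirpa at -0.66. Inpp5d (SHIP1), the phosphatase that Fcgr2b recruits, was at -0.21 ± 0.14 and passed (limma, adjusted p = 0.0312). The positive call was its relative Inppl1 at 0.17. Without mouse 3 there were 12 calls, all negative. There were 3 without mouse 2 or mouse 6, 4 without mouse 4, and 7 negative ones without mouse 1 or mouse 5.

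Of the 7 other ITAM-bearing chains tested, 1 passed on each side. Clec7a, the glucan receptor Dectin-1 with a motif in its own tail, was at -1.76, and the T cell receptor zeta chain Cd247 was at 0.43 (n = 4), a call lost without mouse 2, 4 or 5. Cd3e and Cd79a, ITAM chains of T and B cells, were at -0.16 and -0.32 and did not pass. Among the ligands, the immunoglobulin heavy chain probe Igh lay on the opposite side from the receptors. Its log2 ratio was 2.753, 2.287, 1.278, 2.749, 2.753 and 3.057 in mice 1 to 6, with a mean of 2.48 ± 0.64 (limma, adjusted p = 0.00232). The probe does not say which heavy chain class it measures. Ighm, the IgM heavy chain, was at -0.11 on the probe measured in all mice and at 0.12 on another probe measured in 5, neither past the test.

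**Figure D3:**
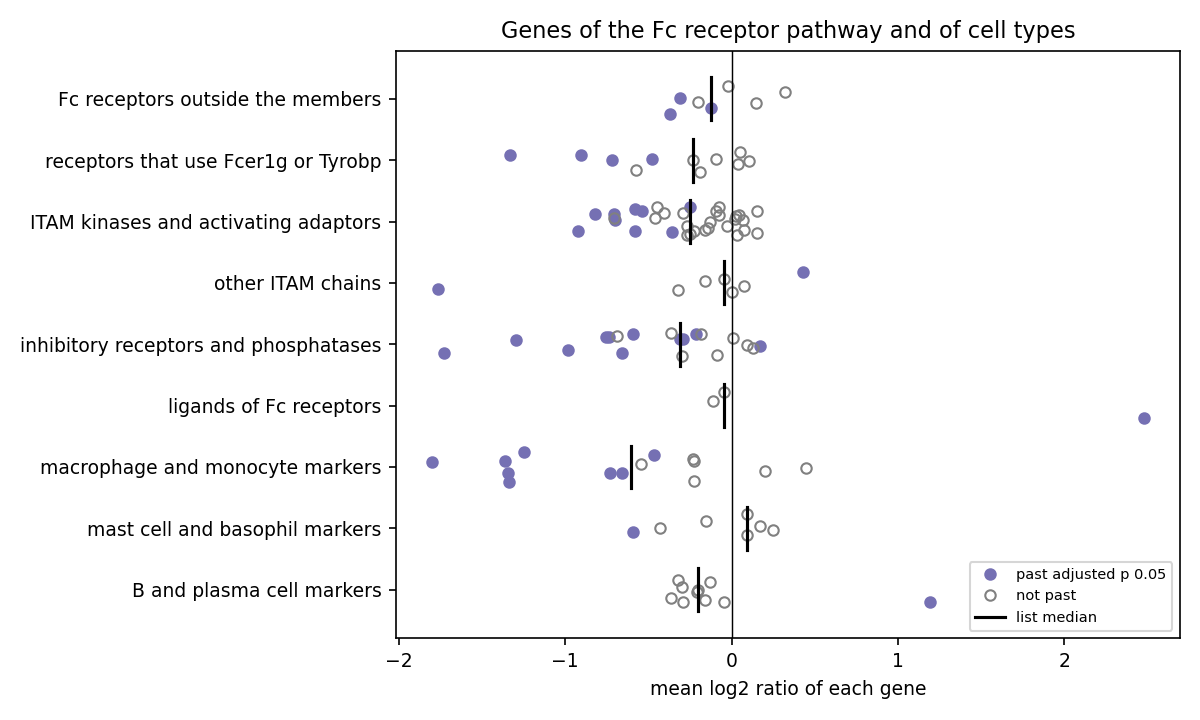
Mean log2 ratio (horizontal axis) of each tested gene in the pathway lists and in 3 cell type lists (rows). Filled points passed an adjusted p of 0.05 in limma, open points did not, and black bars are list medians, which run from -0.60 for macrophage and monocyte markers to 0.09 for mast cell and basophil markers; Igh is the point at 2.48, and the row of other Fc receptors includes Fcnb (-0.12).

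Macrophage and monocyte markers moved with the receptors: 8 of 14 tested passed, all negative. The count was also 8 without mouse 3, 5 without mouse 5, and 3 without mouse 1, 2, 4 or 6. The list median was -0.60 over mice, between -1.075 in mouse 2 and 0.152 in mouse 3. Aif1 was at -1.80, the complement chain C1qa at -1.36 and C1qb at -1.34. Defining macrophage genes did not all take part, since Cd68, Mrc1, Marco, Msr1 and Cd163 did not pass. Sirpa is in this list as well as in the inhibitory one. The part of these markers in the receptor values was not tested.

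Markers of other cells were read in the same way, and most of their calls were lost without mouse 2 or mouse 4. Mast cell and basophil markers had 1 call among 7, the granule proteoglycan Srgn at -0.59, which many blood cells make. The mast cell protease Cpa3 was at 0.17 and the basophil protease Mcpt8 at -0.43, neither past the test. B and plasma cell markers also had 1 call among 10, Vpreb3 at 1.19 on the positive side, while Ms4a1 and Cd79a were at -0.36 and -0.32. Without mouse 3 they had 2 calls below 0 beside Vpreb3. Neutrophil markers had 3 negative calls among 11 (Cd177 at -1.15, Mmp8 at -0.41, Mpo at -0.15), 4 without mouse 3 and 1 without mouse 2 or mouse 6. Eosinophil markers had 2 among 4, Rnase2a at -1.91 and Alox15 at -0.59, while Prg2 was at -0.06. Both eosinophil calls were lost when any mouse but mouse 3 was left out. Dendritic cell markers had 2 negative calls and 1 positive call among 7, H2-Ab1 at -0.48, Fscn1 at -0.18 and Cst3 at 0.43. Natural killer cell markers had 0 calls among 4 in limma, with 0 at an unadjusted p under 0.05, and Gzma was at 0.15.

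The genes most like each receptor or adaptor were taken by Pearson r over the 6 arrays, among 1394 genes with an SD of at least 0.3. With 6 arrays that share the pool and with mouse 3 apart, many genes reach a high r, so the values describe likeness and carry no p. For Fcgr1 they were Tor3a (r = 0.995), Twf1 (0.992), Slfn4 (0.984), Rasgrf2 (0.981) and Irgm2 (0.98). Slfn4 and Irgm2 are interferon-induced, and Slfn4 was at -2.45 and Irgm2 at -0.97. For Fcgr2b the first was Aurkb, a mitotic kinase (r = 0.996), which also lay close in size, with a root mean square difference of 0.148. Cd276 (0.995), Tube1 (0.994), Jpt1 (0.993) and Plod1 (0.992) followed.

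Fcer1g was most like the complement chain C1qb (r = 0.993), the membrane protein Ifitm3 (0.991), the serum amyloid Saa3 (0.989), the lysosomal protease Ctsz (0.988) and the proton channel Hvcn1 (0.987). Ctsz was close in size too, with a root mean square difference of 0.207. C1qb was at 0.454 in mouse 3 and between -2.282 and -1.237 in the others, so it shared the positive value of Fcer1g in mouse 3. Tyrobp was most like Spi1 (r = 0.984), which encodes PU.1, followed by H2-Ab1 (0.981), Macrod2 (0.98), Trem3 (0.964) and Fyb (0.964). Spi1 was at -0.637, -0.152, 0.36, 0.11, 0.05 and -0.246 in mice 1 to 6, lowest in mouse 1 as Tyrobp was. Its mean of -0.09 did not pass (limma, adjusted p = 0.629). Trem3, a receptor that signals through Tyrobp, lay closest in size, with a root mean square difference of 0.0977.

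Among the receptors and adaptors themselves, Fcer1g and Fcgr2b had r = 0.957, Fcgr1 and Fcgr2b 0.855, Fcgr1 and Fcer1g 0.786, and Tyrobp and Fcer1g 0.76. Tyrobp had r = 0.803 with Fcgr1 and 0.796 with Fcgr2b. Of the 1394 genes, Fcgr2b ranked 40 in likeness to Fcer1g, and Fcer1g ranked 79 in likeness to Fcgr2b. The ranks of all other pairs lay between 118 and 378. Many genes outside this set were thus more like each receptor or adaptor than these were like each other.

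**Figure D4:**
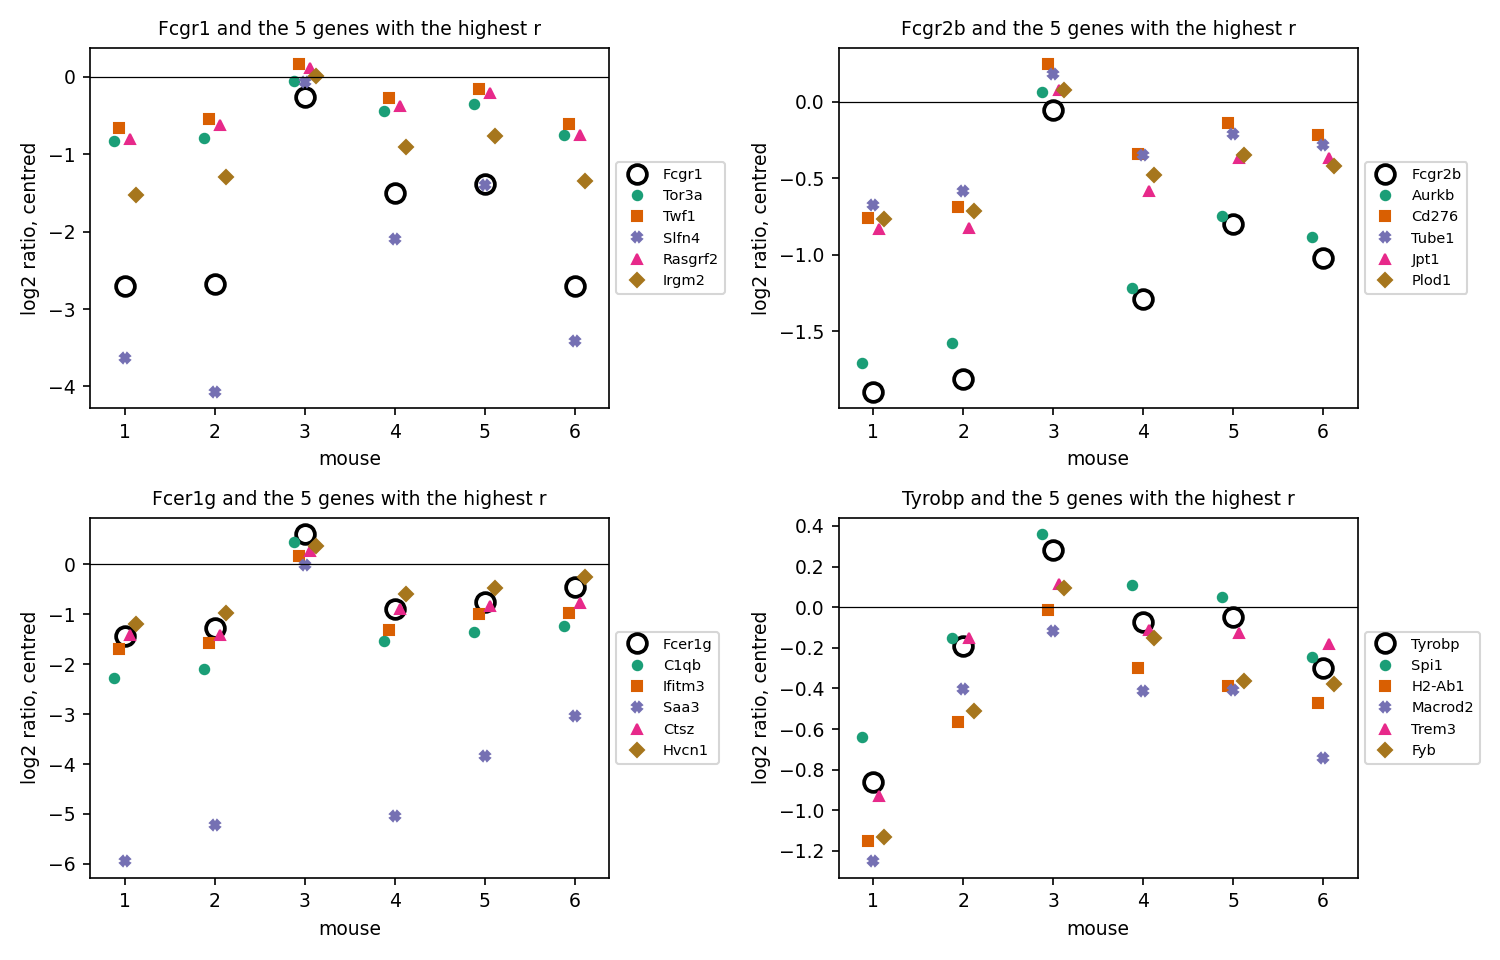
Centred log2 ratio (vertical axis) in each of the 6 mice (horizontal axis) for Fcgr1, Fcgr2b, Fcer1g and Tyrobp (open black circles) and the 5 genes with the highest r to each (coloured symbols). Mouse 3 is the highest point of each circle series, and Tyrobp and Spi1 are both lowest in mouse 1 (-0.86 and -0.637).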

How the data were processed

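The authors deposited 1 log ratio per spot and array, read here as log2; scanning, normalization and filtering of the spots, and the ratio's base, dyes and direction, were not given in the sources used here. With a natural logarithm Fcgr1 would be 6.50-fold apart instead of 3.66-fold. Of 17280 probes 14722 had 1 symbol in GEO's platform annotation, and 14445 were renamed through RefSeq's gene table (GRCm38.p6). Arrays were centred on their medians (-0.012 to 0.008), and 170 repeated and 4 plant control rows were left out. Probes with values on at least 4 arrays were tested against 0 with limma 3.58.1 (R 4.3.3; intercept, eBayes, two-sided, Benjamini-Hochberg over 11629 probes). The pool is 1 control sample, so the spread between control mice is left out, as is any dye effect; the number of arrays limits the precision. On simulated data the fit recovered 76.1% of 1.5-fold and 98.5% of 2-fold changes. The simulation drew independent normal noise with each probe's SD, without an error of the shared pool or a deviating array. The SD of Fcgr1, 1.00, was far above the median of 0.158 over probes on 6 arrays, so these shares do not describe it. A gene with several probes was read from the one measured in most mice. The members and lists were chosen with earlier results of these data known. The text names all members, up to 6 called genes per pathway list (3 per marker list, 2 uncalled where none passed), the 5 most alike genes per member, and Clca1, Muc5ac and Retnla; other genes were chosen after their values were seen. Alternatives covered centring, scaling, quantile normalization, array minimum, weights, variance, genes for probes, threshold and leaving out each mouse. Figures used matplotlib 3.10.9.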

Additional observations from a re-analysis of the deposited data

How the results depend on the processing

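The negative mean of each of the 5 genes held under every alternative run, including no centring, scaled arrays and quantile normalization. Fcgr1 passed 0.05 in all of them (adjusted p 0.00239 to 0.0493), with means of -2.19 to -1.71 when 1 mouse was left out. At an adjusted p of 0.01 neither Fcgr1 (mean -1.87) nor Fcgr2b (mean -1.14) passed, and Fcgr2b at -1.14 also missed 0.05 with unmoderated variances (adjusted p = 0.0585). Leaving out 1 mouse gave means of -1.36 to -0.995 for Fcgr2b, which missed the threshold without mouse 4, and of -0.961 to -0.552 for Fcer1g, which passed without mouse 3. Fcer1g also passed with array weights (-0.738). The corresponding ranges were -0.242 to -0.107 for Fcgr3 and -0.293 to -0.065 for Tyrobp. The difference between Fcgr3 and Tyrobp changed sign with scaled arrays (-0.00158) and lay between -0.113 and 0.132 when 1 mouse was left out. The other 9 differences kept their sign. The count of 2832 probes became 746 at a threshold of 0.01, 1444 with unmoderated variances and 1325 to 3036 with 1 mouse left out. With unmoderated variances the calls fell to 2 among the ITAM kinases and adaptors, 1 among the inhibitory genes and 1 among the macrophage markers. The cause of these changes was not tested beyond the smaller number of mice or the stricter rule itself. A setting chosen after seeing the data left out probes 6, 18 or 24 numbers from a probe with a larger mean of the same sign. That larger mean had to be at least 1 in size, and all 5 genes stayed in. Tyrobp (-0.198) stayed although Yipf6 (-0.224) and Bhlha15 (-0.231) near it had slightly larger means, since neither reached 1. The setting did take genes out of the lists. The macrophage markers fell from 14 tested to 12 and from 8 calls to 7. Eosinophil markers fell from 4 tested to 3 and from 2 calls to 1. The B cell, neutrophil, ITAM kinase, other ITAM and inhibitory lists also lost a gene, but no call. No paired analysis was possible because there is 1 group of mice and 1 pool.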
